A study of Mus musculus with 5 samples.

Results

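The 10 genes described here encode the contractile actin and myosin machinery of smooth muscle cells and of the stress fibres of fibroblasts. They are Acta2, Actg2, Tagln, Cnn1, Cnn2, Myl9, Tpm1, Tpm2, Myh9 and Actn1. They were chosen by name for their textbook roles in contraction, but with earlier results of these data known. Their symbols were mapped to the gene identifiers of the files, which hold 27729 genes. All 10 were found, and all 10 were among the 13346 genes that reached 10 expected counts in at least 1 library, called the genes tested below.

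The study converted mouse embryonic fibroblasts (MEFs) towards neuron-like cells with a defined medium alone, and RNA was sequenced along the way. The MEFs came from embryos of the ICR strain without head and inner organs, and strongly attached cells had been enriched before use. Day 0 is the culture in medium with fetal bovine serum (FBS), and days 2, 5, 10 and 14 follow the change to the induction medium. This medium, named 6C in the labels and 5C in the study's text, supplies vitamin C, 2-mercaptoethanol, LIF, bFGF and the insulin-containing N2 supplement in DMEM/F12, without serum. All 5 libraries share the strain and the cell source, and no line, clone or transgene is involved. Each time point has 1 library, so differences between days have no replicate check and come without a test or p-value. Change of serum, new factors and time in culture began together at day 0 and cannot be told apart. All 4 comparisons below share the day 0 library. The lysis note in the labels gives a last time point 1 day after the day 14 of the sample's own label.

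In contractile cells, actin filaments slide along bipolar filaments of myosin II. Force is switched on when the regulatory light chain of myosin is phosphorylated, is passed along filaments coated by tropomyosin and calponin-type proteins, and is anchored by alpha-actinin. Resting smooth muscle and fibroblasts activated by serum or TGF-beta carry the smooth muscle versions of these proteins, whereas every cell has nonmuscle versions. The smooth muscle versions are known targets of serum response factor (SRF), which binds the CArG box in their promoters together with myocardin-related coactivators, which are held back by monomeric actin.

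Normalized counts here are the deposited expected counts divided by each library's effective size (TMM) and brought to a common scale, and a log2 change is taken against day 0 with a pseudocount of 1. A gene was called when it was over 2-fold above or below day 0. Intervals are exact 95% Clopper-Pearson intervals of the counts without a pseudocount. They cover counting error only, since each time point has 1 library. The reads carried no molecular identifiers, so copies of the same molecule were counted apart and the intervals can be too narrow. The libraries held between 2253748 and 3890334 summed expected counts, with the lowest sum on day 2. In that library the gene Gm42418 alone took 4.79% of the counts, against at most 0.109% in the other libraries.

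The promoter sequences of RefSeq (build GRCm38.p6, 250 bases before each start) covered 8 of the 10 genes. The CArG box, the DNA site of SRF, was searched by its 10-base form with only A or T at its 6 inner positions, and it was found in 2 of these 8 promoters and in 1.47% of 32851 promoters of the genome. Both stretches are shown because they are the only exact CArG boxes among these promoters, with the box in capitals. The Myl9 stretch also holds, in capitals, a second box in which 1 inner base is not A or T. The first is chr2:156775273-156775404 on the plus strand, 191 to 60 bases before the Myl9 start, and the second is chr10:79988514-79988583 on the plus strand, 86 to 17 bases before the Cnn2 start. Neither overlaps an annotated exon of its gene.
Myl9: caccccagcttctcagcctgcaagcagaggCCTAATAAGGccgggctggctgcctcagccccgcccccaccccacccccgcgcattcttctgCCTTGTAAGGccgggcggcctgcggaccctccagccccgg
Cnn2: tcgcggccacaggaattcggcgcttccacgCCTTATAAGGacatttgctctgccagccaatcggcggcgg
With 1 inner base other than A or T allowed, a setting added after the data had been seen, 3 of the 8 promoters and 8.59% of all promoters held a box. The gene gained was Acta2, on the minus strand of chromosome 19, with CCCTATATGG at 84 to 75 bases (chr19:34255448-34255457) and CCTTGTTTGG at 34 to 25 bases before its RefSeq start (chr19:34255398-34255407). The GENCODE gene of Acta2 begins farther upstream, so that both boxes lie within its span and 217 of the 250 bases are annotated as exon. M-CAT, a 6-base site of TEAD factors spelled GGAATG and searched on both strands, was present before the RefSeq starts of Acta2 and Tpm1, in 2 of 8 promoters against 12.6% of all promoters. Both matches lie within the GENCODE gene spans, and 193 of the 250 bases of Tpm1 are annotated as exon. These are matches of letters. They show no binding, and the windows are too short to show that a box is absent from a gene.

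All 10 genes were lower than on day 0 in every later library on this scale. On days 2, 5 and 10, 9 of 10 were over 2-fold below day 0, and on day 14 all 10 were. The tenth call on day 14, that of Myh9, was lost with summed counts, TPM values and quantile normalization. The day 2 call of Cnn2 was lost with DESeq2 size factors, quantile normalization, a pseudocount of 5 and TMM without Gm42418 and Lars2. Of all genes tested, 13.1%, 13.6%, 22.3% and 19.9% passed the same threshold on days 2, 5, 10 and 14. None of the 10 was over 2-fold above day 0, whereas 15.2%, 20.2%, 28.7% and 24.5% of all genes tested were on days 2, 5, 10 and 14. The median log2 change of the 10 genes was −1.71 on day 2 (−1.90 to −1.57, the medians of the lower and upper limits) and −3.42 (−3.57 to −3.29), −4.46 (−4.93 to −4.05) and −5.73 (−6.06 to −5.30) on days 5, 10 and 14. The medians of all genes tested were −0.03, 0.05, 0.14 and 0.07. Together the 10 genes held 2.15% of all counts on day 0 and 0.140% on day 14, and their summed TPM values went from 17392 to 1102. With TPM values the folds of the single genes on day 14 were smaller, from 1.22 for Myh9 to 123 for Acta2, while the median of all genes tested was 0.78 on the log2 scale. RNA was taken from whole cultures, so fewer cells with a contractile apparatus and less of these RNAs per cell cannot be told apart.

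**Figure D1:**
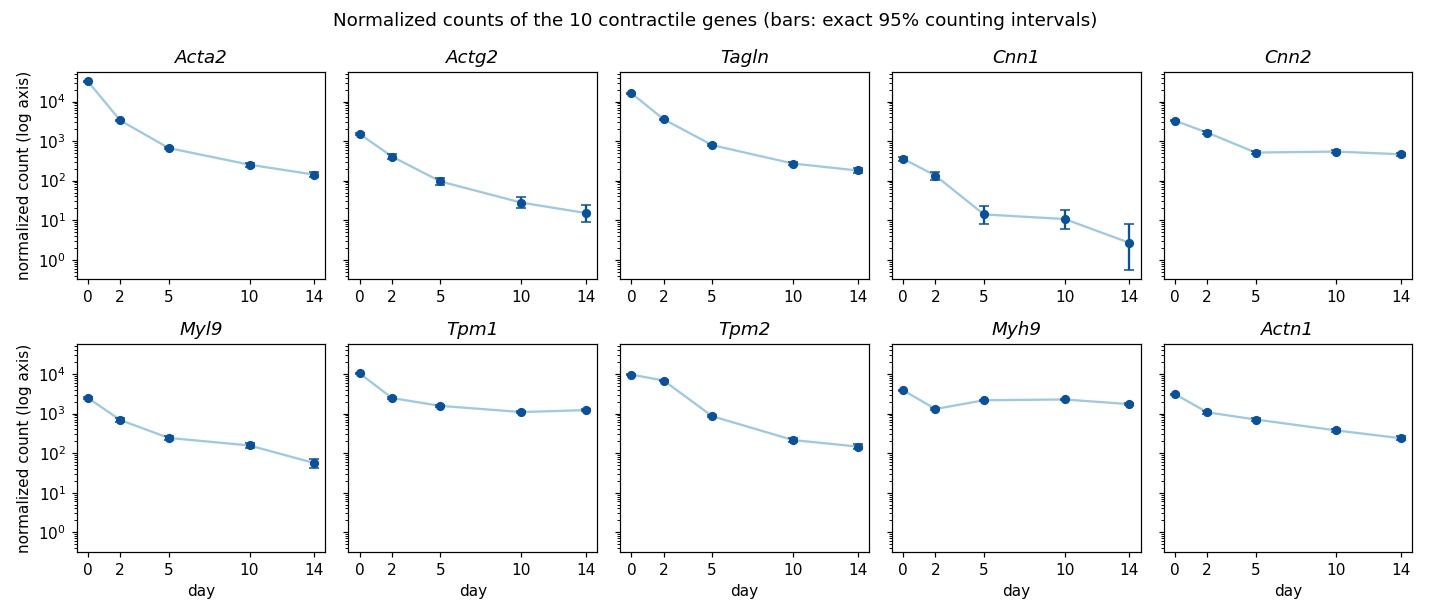
Normalized counts (log axis) of the 10 genes against the day of sampling, 1 library per day, with bars for exact 95% counting intervals and lines joining the days. Acta2 runs from 32045 to 142, while Myh9 dips to 1305 on day 2 and stands at 1729.6 on day 14.

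The smooth muscle actins are the filament proteins of contraction. Acta2 (ENSMUSG00000035783; chromosome 19, 34241090 to 34255590, minus strand, GRCm38) encodes smooth muscle alpha-actin, the marker protein of smooth muscle cells and activated fibroblasts. Its normalized count was 32045 in the FBS culture and then 3325, 666, 253 and 142 on days 2, 5, 10 and 14. Each library was thus lower than the one before, and no counting intervals of neighbouring days overlapped. By day 14 Acta2 was 226-fold below day 0 (interval 193 to 265), a log2 change of −7.81. This was the lowest change of the 8273 genes that had at least 100 expected counts in some library. Per length, Acta2 was rank 18 of all genes on day 0 (6362 TPM) and rank 3630 on day 14.

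Actg2 (ENSMUSG00000059430; chromosome 6, 83512905 to 83536265, minus strand) encodes smooth muscle gamma-actin, the actin of visceral smooth muscle. In the same order of libraries, its normalized counts were 1507, 407, 95.4, 27.8 and 15.2. It followed the same order of days at a lower level, and its interval of the step from day 10 to day 14 reached from −1.79 to −0.02 on the log2 scale. On day 14 it was 99.2-fold below day 0 (61.7 to 171).

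Within a library, the ratio of the TPM values of Acta2 and Actg2 does not depend on scaling between libraries. It was 15.6 (14.8 to 16.5) on day 0, only 5.84 (5.11 to 6.78) on day 2, and between 4.98 and 6.68 on the later days. Acta2 therefore dropped more than Actg2 in the first 2 days, and from day 2 on the intervals of the ratio overlapped in all libraries.

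The calponin and transgelin families bind along actin filaments. Tagln (ENSMUSG00000032085; chromosome 9, 45929619 to 45936058, minus strand) encodes transgelin, also called SM22, a small actin-binding protein of early smooth muscle. Normalized counts of Tagln started at 16174 and went to 3549, 790.1, 271 and 181 on days 2, 5, 10 and 14. It was lower in each successive library, ending 89.6-fold below day 0 (78.0 to 103). On the per-length scale Tagln was at 0.568 times the level of Acta2 on day 0 and above Acta2 on every later day, by 1.20 to 1.43 times.

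Cnn1 (ENSMUSG00000001349; chromosome 9, 22099216 to 22109630, plus strand) encodes the basic calponin of differentiated smooth muscle. It had a normalized count of 357 on day 0, followed by 134, 14.0, 10.7 and 2.68 on days 2 to 14, the last from 3 counts. Days 5 and 10 did not differ beyond counting error, with a step of −0.36 (−1.50 to 0.72). On day 14 the ratio of day 0 to day 14 was 133, with a wide interval of 45.2 to 649.

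Cnn2 (ENSMUSG00000004665; chromosome 10, 79988584 to 79996062, plus strand) encodes the calponin that nonmuscle cells also express. For Cnn2 the normalized counts of the 5 libraries, from day 0 to day 14, were 3279.7, 1639, 512, 543 and 464. It fell until day 5 and then stayed near 1 level, the step from day 5 to day 10 being 0.08 (−0.07 to 0.24). On day 14 it was 7.07-fold below day 0 (6.44 to 7.77). Its log2 change on day 2 was −1.0005 (−1.11 to −0.89), right at the 2-fold threshold. It was within 2-fold on that day with DESeq2 size factors (−0.99) and quantile normalization (−0.89). The same held for TMM without Gm42418 and Lars2 (−0.9996) and a pseudocount of 5 (−0.9987). With TPM values it was 2.93-fold below day 0 on day 14 and within 2-fold on day 10, at −0.96. The promoters printed above with an exact CArG box are those of Cnn2 and of Myl9, which was 44.1-fold below day 0 on day 14. Whether the boxes bear on these changes was not tested.

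Of the motor subunits, the smooth muscle light chain Myl9 and the nonmuscle heavy chain Myh9 behaved differently. This is not a contrast of light and heavy chains as such. The smooth muscle heavy chain Myh11 was at −4.87 on day 14, and the nonmuscle light chain Myl12a at −2.09. Myl9 (ENSMUSG00000067818; chromosome 2, 156775420 to 156781658, plus strand) encodes the regulatory light chain that is phosphorylated to start contraction, in the form of smooth muscle. It was at 2484 normalized counts before the change of medium and at 687, 242, 156 and 56.3 on days 2, 5, 10 and 14. Each step was downward beyond counting error on this scale, and day 14 was 44.1-fold below day 0 (34.4 to 57.6). With TPM values Myl9 moved little between day 5 (138) and day 10 (125), and day 14 was 17.9-fold below day 0.

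Myh9 (ENSMUSG00000022443; chromosome 15, 77760587 to 77842175, minus strand) encodes the heavy chain of nonmuscle myosin IIA, the main motor of stress fibres. Its normalized counts, in the order of days, were 3872, 1305, 2169.8, 2269 and 1729.6. Day 2 was the lowest library. From day 2 to day 5 the gene went up by 0.73 on the log2 scale (0.61 to 0.86), and it alone of the 10 genes was higher on day 5 than on day 2 on this scale, whereas with TPM values Tpm1 and Actn1 were too. Days 5 and 10 did not differ beyond counting error (step 0.06, −0.01 to 0.14). Its log2 changes on days 2, 5, 10 and 14 were −1.57, −0.84, −0.77 and −1.16. The small differences depend on the scale, since on day 10 Myh9 was above day 0 by 0.42 with deposited TPM values and by 0.12 with quantile normalization. On day 14 its change was −0.80 with summed counts, −0.28 with TPM values and −0.57 with quantile normalization, each within 2-fold. The median of all genes tested moved with the scale too, to 1.09 on day 10 with TPM values against 0.14 here, so relative to that median Myh9 was lower with TPM values as well, but not with quantile normalization.

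The tropomyosins stabilise actin filaments and gate the access of myosin to them. Tpm1 (ENSMUSG00000032366; chromosome 9, 67022590 to 67049406, minus strand) had normalized counts of 10403, 2467, 1565, 1092 and 1225 in the libraries from day 0 to day 14. It fell most in the first 2 days. Between day 10 and day 14 it went up by 0.17 (0.06 to 0.27), but this direction turned with TPM values (528 to 484) and was gone with quantile normalization, at −2.33 on both days. On day 14 it was 8.50-fold below day 0 (8.03 to 8.99).

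Tpm2 (ENSMUSG00000028464; chromosome 4, 43514711 to 43523765, minus strand), which encodes beta-tropomyosin, fell last. The normalized count was 9641 on day 0, still 6831 on day 2, and 857, 214 and 147 on the 3 later days. On day 2 its log2 change was −0.50 (−0.55 to −0.44), the smallest of the 10 genes, and it alone was within 2-fold of day 0. From day 2 to day 5 it went down by 2.99 on the log2 scale (step −2.99, −3.10 to −2.89). On day 14 it was 65.8-fold below day 0 (56.4 to 77.2).

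Actn1 (ENSMUSG00000015143; chromosome 12, 80167547 to 80260371, minus strand) encodes alpha-actinin 1, the cross-linker of actin bundles in stress fibres and focal adhesions. Actn1 had 3101 normalized counts on day 0 and 1076, 707, 374 and 238 on days 2, 5, 10 and 14. It was lower in each successive library and ended 13.1-fold below day 0 (11.5 to 14.8). With TPM values it went up from 84.4 on day 2 to 116 on day 5 and ended 6.49-fold below day 0.

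**Figure D2:**
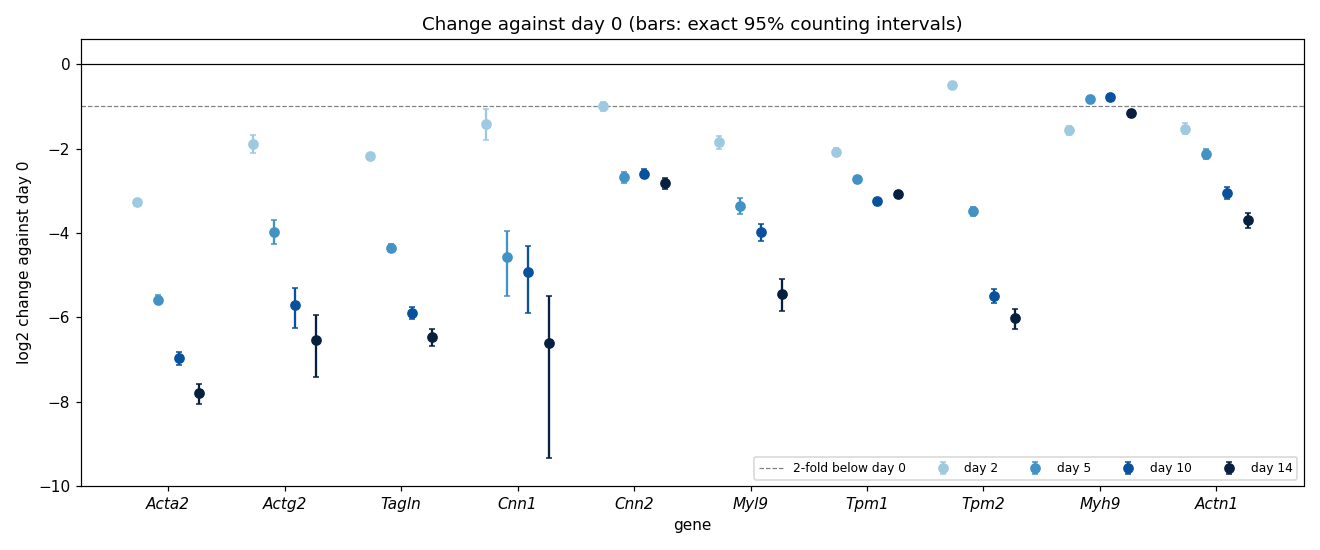
Log2 change of each gene against day 0 on days 2, 5, 10 and 14 (light to dark points), with bars for exact 95% counting intervals and a dashed line at 2-fold below day 0. Tpm2 on day 2 and Myh9 on days 5 and 10 lie above the dashed line, and Acta2 on day 14 is the lowest point at −7.81.

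On the scale of normalized counts the 10 genes took 3 courses. Acta2, Actg2, Tagln, Cnn1, Myl9, Tpm2 and Actn1 went down through day 14, with changes on that day between −7.81 and −3.70. Tpm1 went down until day 10 and Cnn2 until day 5, after which they moved little, at −3.09 and −2.82 on day 14. Myh9 dipped on day 2 and partly returned on this scale, but by day 14 not against genes of similar length (values below). The step from day 2 to day 5 had counting intervals below 0 in 9 genes and above 0 in 1. The step from day 5 to day 10 had them below 0 in 7 genes and holding 0 in 3, namely Cnn1, Cnn2 and Myh9. The step from day 10 to day 14 had them below 0 in 9 genes and above 0 in 1. The median steps were −1.88, −0.77 and −0.62, while those of all genes tested were 0.12, −0.01 and 0.02.

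Because the cell always holds several versions of each protein, the share of each version was taken within its gene family, from TPM values of the same library. In the actin family Acta2 made up 37.3% of the summed TPM of 6 genes on day 0, and its share was 5.82%, 4.10%, 2.01% and 0.761% on days 2, 5, 10 and 14. On day 0 it stood above both cytoplasmic actins, with Acta2 at 1.28 times the TPM of Actb (1.26 to 1.30) and 1.23 times that of Actg1 (1.21 to 1.25). On day 14 Actb was 70.3 times and Actg1 60.0 times as high as Acta2. Actb and Actg1, the nonmuscle actins of every cell, fell too, with log2 changes of −1.56 and −1.63 on day 14, but Actb was at 0.42 on day 2 when Acta2 was at −3.27. The summed TPM of the actin family went from 17051 at the start to 9470.1, 5273, 5607 and 6791 on the later days.

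The transgelins exchanged places. Tagln was 81.1% of the family on day 0 and 60.7%, 37.5%, 21.5% and 9.52% in the libraries that followed. The rest was almost all Tagln2, the transgelin of nonmuscle cells, which was 0.232 times as high as Tagln on day 0 and 9.48 times as high on day 14. In TPM, Tagln2 stood at 838 on day 0, with a low of 428 on day 2 and 699.6 on day 14. The median log2 change of all genes tested was 0.78 on day 14 with TPM values, so relative to it Tagln2 remained lower than on day 0. Tagln3, the neuronal transgelin, was at or below 0.266% of the family in every library.

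In the calponin family the shift came between day 2 and day 5. Cnn2 was 62.1% and 62.9% of it on days 0 and 2, and 34.0%, 30.5% and 31.4% on days 5, 10 and 14. Cnn1 went from 6.84% on day 0 to 0.139% on day 14. Cnn3, the acidic calponin of many nonmuscle tissues, took the place, with 31.1% on day 0 and 68.5% on day 14. Its own normalized counts were 1373, 673, 1059.8, 1423 and 1111 in the order of days. By day 14 Cnn3 was within 2-fold of day 0, at −0.30 (−0.42 to −0.19).

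The tropomyosin family passed from Tpm2 to Tpm1 and Tpm4. Tpm2 went from 53.0% to 66.1% of the family between day 0 and day 2, and then went to 28.0%, 9.84% and 6.67%. Tpm1 held 34.8% on day 0, a low of 17.7% on day 2, and 40.2% at the end. Tpm4, a tropomyosin of nonmuscle filaments, held 9.36% on day 0 and 39.7% on day 14, which put it level with Tpm1, whose TPM was 1.01 times that of Tpm4 (0.944 to 1.09). Tpm3, made by skeletal and nonmuscle cells, went from 2.89% to 13.4%. The higher shares of Tpm4 and Tpm3 came with lower levels, since their log2 changes on day 14 were −1.14 and −1.17.

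Among the myosin subunits, Myl9 was 29.3% of the regulatory light chains on day 0 and 23.7%, 10.3%, 11.5% and 4.36% on the later days. Myl12a and Myl12b, the light chains of nonmuscle myosin, made up the rest, with Myl12a at 2.07 times the TPM of Myl9 on day 0 and 16.0 times on day 14. Of the heavy chains, Myh9 was 66.2%, 47.2% and 74.7% on days 0, 2 and 14. Myh10, nonmuscle myosin IIB, was 29.97%, 48.3% and 23.7% in the same libraries, so that on day 2 the TPM ratio of Myh9 to Myh10 was 0.977 (0.845 to 1.16). Myh11, the smooth muscle heavy chain, went from 3.55% on day 0 to 0.259% on day 14, while Myh14, nonmuscle myosin IIC, was at most 2.96%. Actn1 was 44.7% of the alpha-actinins on day 0 and 12.8% on day 14, against 54.8% and 86.5% for Actn4, the other nonmuscle alpha-actinin. The muscle forms Actn2 and Actn3 together with Actc1, cardiac actin, had at most 23 expected counts in a library.

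**Figure D3:**
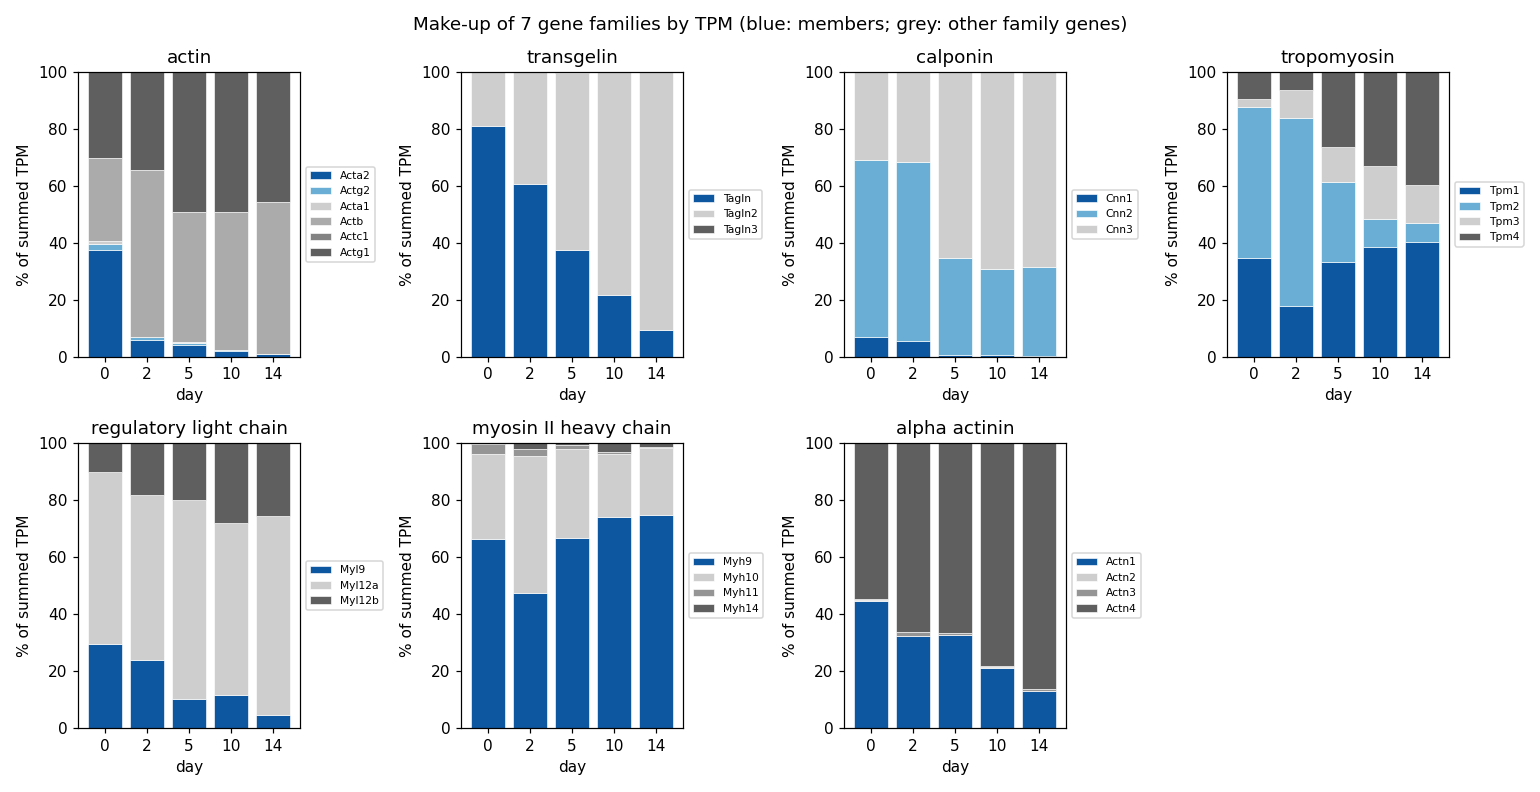
Share of each gene in the summed TPM of its family (stacked bars, 0 to 100%) in the libraries of days 0, 2, 5, 10 and 14, for 7 families, with the genes described here in blue and other family genes in grey. Acta2 shrinks from 37.3% to 0.761% of the actins and Tagln from 81.1% to 9.52% of the transgelins, while Myh9 is 66.2% of the myosin II heavy chains on day 0 and 74.7% on day 14.

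RSEM divides reads that match several genes between them, so closely related actins carry an uncertainty beyond counting. The longest open reading frames of Acta2 and Acta1, skeletal muscle actin, were 85.4% identical, with identical runs of up to 29 bases, and those of Acta2 and Actg1 shared a run of 56 bases. Acta1 had normalized counts of 579, 56.1, 9.81, 2.25 and 5.45 from day 0 to day 14. The TPM of Acta2 was 44.4 times that of Acta1 on day 0 (41.0 to 48.4) and 47.5 times on day 2 (33.5 to 70.4), with overlapping intervals. Whether part of the Acta1 count came from Acta2 reads was not tested. The length that RSEM weights by isoform also moved for some genes, from 2396 bases on day 0 to 1825 on day 14 for Cnn2 and from 1119 to 835 for Myl9, and TPM values take that up while counts do not.

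Other smooth muscle genes moved less evenly than the 10 genes. Of 15 listed, 13 were tested. On day 14, 8 were over 2-fold below and 2 over 2-fold above day 0. These were 61.5% below and 15.4% above, against 19.9% and 24.5% of all genes tested. The median log2 change of the 13 was −1.69. Lmod1, a leiomodin that seeds actin filaments in smooth muscle, had normalized counts of 252, 21.7, 12.2, 11.4 and 0.894 from day 0 to day 14, the last from 1 count. Myh11, the most specific smooth muscle myosin, had 185, 61.5, 40.3, 25.0 and 5.36. Aoc3, an amine oxidase of the smooth muscle surface, went the other way, from 1.98 on day 0 to 103 on day 14. The loss of contractile transcripts therefore did not extend to each gene of the smooth muscle list.

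The nonmuscle relatives were lower as well, but by less. On day 14, 9 of 12 were over 2-fold below and 1 over 2-fold above day 0, against 19.9% and 24.5% of all genes tested. The median log2 change of the 12 was −1.21. With TPM values it was −0.25, where the median of all genes tested was 0.78. Myl6, the essential light chain shared by nonmuscle and smooth muscle myosin, was at −2.64 and Myl12a at −2.09. Of 8 striated relatives 3 were tested and each was called below day 0 on day 14, with a median of −4.57, Acta1 being the only one with 100 or more counts.

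The upstream regulators showed no common fall on day 14. Of 20 listed regulators of SRF and of actin filaments, 19 were tested, and on day 14, 5 were over 2-fold below and 1 over 2-fold above day 0, with a median of −0.13. These were 26.3% below and 5.26% above, against 19.9% and 24.5% of all genes tested. RNA levels do not show how active these regulators were. Srf had normalized counts of 324, 291, 151, 116 and 173 in the order of days. The log2 change of Srf on day 14 was −0.90 (−1.17 to −0.65). Its TPM was 27.8 on day 0 and 27.2 on day 14, where the median log2 change of all genes tested was 0.78 with TPM values. Mrtfa, which encodes the actin-sensing coactivator of SRF, was at 246, 261, 155, 177 and 116, and its relative Mrtfb at 70.7, 100.3, 97.1, 171 and 108. On day 14 Mrtfa was over 2-fold below day 0. Myocd, the coactivator of committed smooth muscle, had 1 count on day 0 and 0 in the 4 later libraries, where 3 counts would be 0.772 to 1.33 per 1000000 counts. Rhoc and Limk2, a GTPase and a kinase that favour filament assembly, were at −1.34 and −1.74 on day 14. Arhgef11, a guanine nucleotide exchange factor, was at 4.73, its normalized counts being 8.47 before the switch and 251 at the end.

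Stress fibre and adhesion proteins were split. Of 22 listed and tested, 11 were over 2-fold below and 1 over 2-fold above day 0 on day 14. These were 50% below and 4.55% above, against 19.9% and 24.5% of all genes tested. The median of the 22 was −1.10, and it was 0.01 with TPM values, where the median of all genes tested was 0.78. Fhl2 and Fhl1, LIM proteins of stress fibres, were the lowest at −3.91 and −3.11. Fhl1 had reached this level by day 2, with normalized counts of 1004.5 on day 0 and 101 on day 2.

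**Figure D4:**
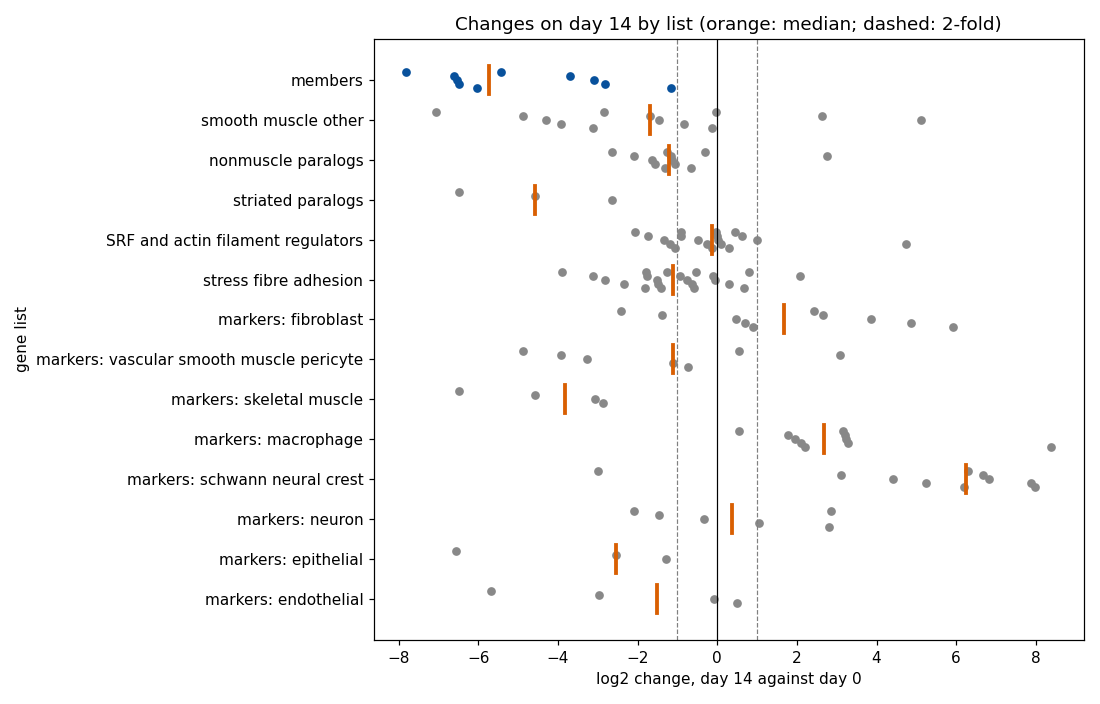
Log2 change on day 14 against day 0 of each tested gene (points), by gene list (rows), with the list median in orange and dashed lines at 2-fold. The 10 genes described here have a median of −5.73, the SRF and actin filament regulators −0.13 and the Schwann and neural crest markers 6.25.

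The labelled cell type was checked with fibroblast markers. All 10 were tested and present on every day, with summed normalized counts between 56202 and 110853. On day 14, 5 were over 2-fold above and 2 over 2-fold below day 0. These were 50% above and 20% below, against 24.5% and 19.9% of all genes tested. The same shares of all genes apply to the day 14 counts of the marker lists below. Lum and Dcn, proteoglycans of the fibroblast matrix, and Col3a1, a fibrillar collagen, were at 5.91, 4.86 and 3.87. The lowest of the 10 markers was at −2.41, and 3 were within 2-fold of day 0. Low contractile gene levels thus went together with higher levels of Lum, Dcn and Col3a1, but not of all fibroblast markers.

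Markers of other cells also moved over the same days. Of the macrophage markers 9 of 10 were over 2-fold above day 0 on day 14, and their summed normalized counts were 220.5, 1947, 3851, 2305 and 1752 from day 0 to day 14. Cd5l was at 0 on day 0 and 333 on day 14, and C1qb and Adgre1 were at 3.23 and 3.21. Of the Schwann and neural crest markers 9 of 10 were over 2-fold above and 1 over 2-fold below day 0, with sums of 532, 679, 1695, 8550.4 and 13273. Sox10, Cdh19 and Ngfr were at 7.97, 7.87 and 6.82. Whether such cells took a larger share of the culture, and what part that has in the falls of the 10 genes, was not tested.

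The remaining marker lists were lower or mixed. Of the vascular smooth muscle and pericyte markers 7 of 10 were tested, 4 were over 2-fold below and 1 above day 0 on day 14, and their sums on days 0, 2 and 14 were 3081, 1033 and 2832. Des, muscle desmin, and Cspg4, the pericyte proteoglycan NG2, were at −3.92 and −3.26, with Myh11 given above, whereas Mcam, an adhesion molecule of vascular cells named after its values were seen, went from 222 on day 0 to 1887 on day 14 and made up most of the day 14 sum. Of the skeletal muscle markers 4 of 10 were tested, and each was called below day 0, with a sum of 659 on day 0 and 10.0 on day 14. Most of that sum was Acta1, Myod1 and Myog had at most 6 counts in a library, and Myf5 had 0 in every library. Endothelial markers summed to 281 on day 0 and 14.4 on day 14, with 2 of 4 tested over 2-fold below day 0, Kdr at −5.69 and Cldn5 at 0 throughout. Epithelial markers summed to 390.0 and 18.8, with 3 of 3 tested over 2-fold below day 0, Krt19 at −6.57, Krt18 at −2.53, and Grhl2 and Ocln at 0 throughout. Neuronal markers summed to 696.5 and 402, with 2 of 6 tested below and 3 above, Tubb3 at 2.81, Map2 at −2.08, Stmn2 at −1.45 and Rbfox3 at 0 throughout.

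Gene length moved with the change in these libraries. In 5 equal groups of genes by length, the median log2 change on day 10 went from −1.15 in the shortest group (median 1042 bases) to 0.92 in the longest (5446 bases). Myl9, Tpm2 and Actg2 were in the shortest group, and Acta2, Tagln, Cnn2 and Tpm1 in the next one, with a median of −0.29. Cnn1 was in the third group, Actn1 in the fourth and Myh9 in the longest. Measured against the median of its own length group, every gene was still lower on day 10. The difference was −6.69 for Acta2, −5.61 for Tagln, −5.09 for Cnn1, −4.34 for Tpm2 and −2.83 for Myl9. It was −3.59 for Actn1 and −1.70 for Myh9, whose group medians were above 0. For Myh9 the difference was −1.42, −1.17 and −1.67 on days 2, 5 and 14. The median of its group was −0.14, 0.33 and 0.50 on those days. The partial return of Myh9 by day 14 was thus not seen against genes of its length. For Myl9 the difference was already −2.78 on day 5. On day 14, 0 of the 2669 genes in the group of Acta2 were lower than Acta2.

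**Figure D5:**
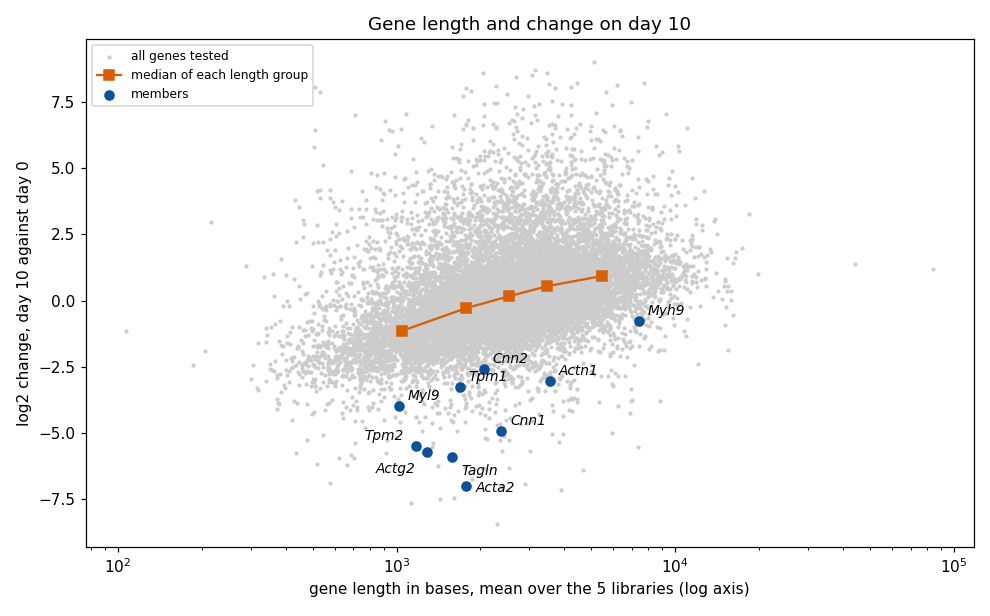
Log2 change on day 10 against gene length (log axis) for the genes tested (grey), with the median of each of 5 length groups (orange squares) and the 10 genes (blue, named). The group medians run from −1.15 to 0.92, and each of the 10 genes lies below the median of its own group.

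Genes with a course like that of Acta2 were listed by the Euclidean distance of their log2 changes over the 4 later days, among the 8273 genes with at least 100 expected counts in some library. Among the 10 nearest were Slc16a3 (distance 1.08), Acta1 (1.42), Col2a1 (1.88), Slc1a6 (2.21), Tagln (2.37), Ankrd1 (2.49), Coch (2.58), Actg2 (2.78) and Myo1h (2.86). Tagln and Actg2 were thus the 2 of the 10 contractile genes nearest to Acta2. Slc16a3, a lactate transporter, had normalized counts of 509, 66.9, 10.5, 2.86 and 3.58 from day 0 to day 14. The list rests on 4 values per gene that share the day 0 library.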

How the data were processed

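Total RNA of 5 MEF cultures was sequenced, 1 library per time point. The submitters' processing notes name Bowtie, RSEM and mm10; their versions and the annotation are not given in the sources used here. The authors deposited expected counts per gene (RSEM's estimates, unscaled), TPM and FPKM values, and gene lengths. Expected counts gave all main results, TPM values gave shares within families and an alternative, and FPKM values were not used. Summed expected counts were 3890334, 2253748, 3392356, 3885124 and 3362149 from day 0 to day 14.

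Symbols and coordinates came from GENCODE M21 (GRCm38; 27247 of 27729 genes matched), promoters from RefSeq (GRCm38.p6). Rounded counts gave TMM sizes in edgeR 4.0.16 (R 4.3.3). A change is log2((normalized count + 1)/(day 0 + 1)), called past 2-fold. Paralog reading frames were aligned with Biopython 1.88. Computations were tested on simulated data.

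Members, lists and tests were chosen with earlier results of these data known. Named were all 10 members, all genes of the 7 families, up to 3 genes of each of 13 other lists with 100 or more counts and the largest change on day 14, Srf, Mrtfa, Mrtfb and Myocd, and the 10 genes nearest to Acta2. Some of these genes are not reported here. Genes listed at 0 or at a few counts were named after their values were seen. Alternatives were DESeq2 1.42.0 size factors, summed counts, TMM without Gm42418 and Lars2 or without day 2, TPM values, quantile normalization, a pseudocount of 5, a 4-fold threshold and other filters.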

Additional observations from a re-analysis of the deposited data

How the results depend on the processing

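Of the 40 log2 changes of the 10 genes on 4 days, all kept their direction and stayed within their counting interval with DESeq2 size factors, with a pseudocount of 5 and with TMM sizes without Gm42418 and Lars2, and so did the 30 that remain without the day 2 library. With TPM values and with quantile normalization 39 of 40 kept their direction, the exception being Myh9 on day 10, and with summed counts 40 of 40 did. Most values left their counting interval, however, namely 39 of 40 with TPM values, 29 with quantile normalization and 30 with summed counts. The median change of the 10 genes became −3.05 on day 5 and −3.996 on day 10 with summed counts. It became −1.95, −2.67, −3.11 and −4.55 on days 2, 5, 10 and 14 with TPM values, and −1.52, −2.81 and −5.28 on days 2, 5 and 14 with quantile normalization. TPM values moved the median of all genes tested to 0.61, 1.09 and 0.78 on days 5, 10 and 14. The number of genes over 2-fold below day 0 stayed between 8 and 10 on each day under these scalings, and 3 of 10 were over 4-fold below day 0 on day 2. With 10 or more counts required in every library, Cnn1 dropped out and the median on day 10 was −3.98. No paired analysis was possible because each time point has 1 library. Depth limits Cnn1 and Actg2 most, at 3 and 17 counts on day 14.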
